A study of Mus musculus with 2 samples.

Results

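The 2′-5′-oligoadenylate synthetase (OAS) genes Oas1a, Oas1g, Oas2, Oas3, Oasl1 and Oasl2 were picked by symbol from the gene rows of the deposited count matrices, and all 6 were found among 32589 genes. Their level was compared between marker-defined cell classes and between the 2 libraries of the series. The cells were leukocytes sorted for CD45 from MC38 tumours, grown from a mouse colon carcinoma line and collected on day 19. One library (Ctrl) came from the control group and the other (BiDT) from mice given BiDT, each from 5 pooled biological replicates, and the series title names a protein that fuses an anti-TIM3 antibody to an interferon. The labels do not spell out BiDT, its dose or schedule, the interferon type, the mouse strain or age, or what the control mice received. Because each group is a single pooled library, no test between groups was possible, mice cannot be told apart, and every interval given here covers counting error only.

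OAS enzymes are switched on by double-stranded RNA, a product of viral replication, and then join ATP into short chains of adenylate with 2′-5′ bonds. These chains set off the decay of viral and cellular RNA and halt protein synthesis. OAS genes are a standard part of the response to interferon, whose receptor acts through the kinases Jak1 and Tyk2 and transcription factors that include Stat2 and Irf9. Oas1a and Oas1g encode the small enzymes, Oas2 and Oas3 encode larger ones built of repeated synthetase units, and Oasl1 and Oasl2 encode proteins with ubiquitin-like domains at their end. Oasl1 makes no 2′-5′ chains and is known for holding back the translation of Irf7, whereas mouse Oasl2 is an active synthetase.

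All 6 genes lie on mouse chromosome 5. In the RefSeq gene table (assembly GRCm38.p6, whereas the files were made on GRCm39, per the submitters' processing notes), Oasl2 and Oasl1 have 1 gene between them, and Oas2 to Oas1a form an unbroken run of OAS genes in the order Oas2, Oas3, Oas1e, Oas1c, Oas1b, Oas1f, Oas1h, Oas1g and Oas1a. The promoter table held 5 of the 6 genes, each as 250 bases before and 50 after the annotated start. A pair of GAAA blocks separated by any 2 bases, the core of the interferon-stimulated response element, was searched on both strands, with overlapping matches counted apart. The pair occurs in the windows of Oas1a, Oas1g and Oas3, and in 3.44% of all 32851 promoter windows. Oas1a and Oas1g each hold 2 overlapping matches, which is the case in 0.225% of all windows, and so does Oas1c, a neighbouring paralog. The 120 bases before the start of these 4 genes are shown because they carry the element, in Oas1a and Oas1g in nearly the same surroundings. The pair was not found in the windows of Oasl1 and Oasl2. All 4 genes lie on the minus strand, the sequences (RefSeq, GRCm38.p6) run 5′ to 3′ towards the start, and capitals mark the matched letters.
Oas1a, chr5:120907526-120907645: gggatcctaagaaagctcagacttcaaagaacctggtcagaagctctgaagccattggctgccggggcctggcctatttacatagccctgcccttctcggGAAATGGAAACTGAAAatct
Oas1g, chr5:120887614-120887733: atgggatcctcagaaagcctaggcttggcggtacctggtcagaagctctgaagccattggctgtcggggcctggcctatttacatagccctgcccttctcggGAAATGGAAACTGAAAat
Oas1c, chr5:120812515-120812634: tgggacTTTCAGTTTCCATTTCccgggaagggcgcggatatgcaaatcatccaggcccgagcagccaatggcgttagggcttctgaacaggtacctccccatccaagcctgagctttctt
Oas3, chr5:120777660-120777779: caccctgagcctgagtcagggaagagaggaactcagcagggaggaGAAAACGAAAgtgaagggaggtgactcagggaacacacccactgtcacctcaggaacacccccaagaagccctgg
The matches begin 20 and 14 bases before the start in Oas1a, 18 and 12 in Oas1g and 75 in Oas3. In Oas1c they read on the opposite strand and begin 114 and 108 bases before the start. After a shift of 2 bases, 108 of 118 aligned bases of the Oas1a and Oas1g windows are identical (91.5%), with the longest shared run at 56 bases.

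The near identity extends to the transcripts, which limits how far Oas1a and Oas1g can be separated. Among the 90-base windows of the last 500 bases of the longest coding transcript (GENCODE M21), 42.3% of those of Oas1a and 13.9% of those of Oas1g occur unchanged in a transcript of the other gene. No such window of Oas2, Oas3, Oasl1 or Oasl2 occurs in another OAS gene. Counts of Oas1a and Oas1g are therefore uncertain to the extent that the counting dropped or split shared reads. The sources used here do not say how such reads were treated.

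The Ctrl library held 30402 filtered cells with a median of 4169.5 UMIs (unique molecular identifiers, counts of captured RNA molecules) and the BiDT library 31456 cells with a median of 2615. The median share of Malat1, a nuclear RNA, was 0.33% in Ctrl and 0.70% in BiDT, that of mitochondrial UMIs was 1.70% and 1.01%, and 713 cell barcodes were shared between the libraries. Leaving the shared barcodes out moved the log2 ratios of the members by -0.41 to 0.51 and reversed none. Cells were placed in classes by markers that include no OAS gene, and classes are named X-like from these markers. In total, 12 named classes had at least 50 cells in each library, and 40.5% of Ctrl and 46.0% of BiDT cells met no gate. Most classes were led by genes of their own type, but Il13 and Il5 led the conventional CD4 T-like cells and Iglc2, an immunoglobulin gene, the migratory dendritic cells (DC). Dmkn led the monocyte-like cells, which had only 1 of their own markers among their leading genes. Gate-defined tumour or stroma-like cells, led by Sparc and Dcn, made up 4.14% and 2.84% of cells although the sort was for CD45. Levels are UMIs per 1000000 UMIs of the class in a library (CPM). The sums per class held from 223897 UMIs (regulatory T-like, BiDT) to 68168038 (macrophage-like, Ctrl).

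Summed over the 6 genes, OAS RNA was higher in BiDT in each of the 12 classes. CD8 T-like cells stood at 29.6 CPM in Ctrl and 409 in BiDT, NK-like cells at 33.1 and 306, conventional CD4 T-like cells at 44.0 and 562, and regulatory T-like cells at 76.1 and 777. Macrophage-like cells stood at 134 and 1199 CPM, monocyte-like cells at 381 and 1315, non-classical monocyte-like cells at 447 and 1499, and neutrophil-like cells at 789 and 1951. Conventional DC of type 1 (cDC1-like) stood at 144 and 509 CPM, those of type 2 (cDC2-like) at 298 and 984, migratory DC-like cells at 173 and 822, and tumour or stroma-like cells at 40.6 and 689. Neutrophil-like cells thus had the highest sum in both libraries and the smallest log2 ratio (1.31), whereas tumour or stroma-like cells (4.08) and CD8 T-like cells (3.79) had the largest. Over all filtered cells the sum went from 156 to 893 CPM.

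For counts of genes, a gene was measured in a class with at least 50 UMIs over both libraries and called at 2-fold. A member that is rare in Ctrl passes this minimum mainly through its BiDT UMIs, so the counts describe the libraries and carry no test. In CD8 T-like cells 5 of 5 measured members were at least 2-fold higher, beside 3.24% of 10331 genes. In NK-like cells it was 5 of 5 (4.93% of 10052 genes), in conventional CD4 T-like cells 2 of 2 (3.9% of 3388) and in regulatory T-like cells 2 of 2 (3.93% of 3229). All 6 members were measured and higher in monocyte-like cells (8.93% of 11025 genes), macrophage-like cells (8.94% of 13123), neutrophil-like cells (4.72% of 6307) and tumour or stroma-like cells (7.03% of 11731). The counts were 5 of 6 in non-classical monocyte-like cells (3.63% of 4411 genes), 4 of 4 in cDC1-like cells (3.69% of 5393), 4 of 5 in cDC2-like cells (2.92% of 6653) and 5 of 5 in migratory DC-like cells (4.18% of 7080). Over all filtered cells all 6 members were higher, beside 12.7% of 16839 genes.

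No member was at least 2-fold lower in a class. The shares of genes that were at least 2-fold lower were 1.09% in CD8 T-like, 1.15% in NK-like, 1.83% in conventional CD4 T-like, 4.58% in regulatory T-like, 1.23% in monocyte-like, 2.4% in non-classical monocyte-like and 5.26% in macrophage-like cells. They were 2.01% in neutrophil-like, 3.8% in cDC1-like, 3.86% in cDC2-like, 0.852% in tumour or stroma-like and 2.9% in migratory DC-like cells, and 1.95% over all filtered cells. With no minimum of UMIs, the counting interval of the log2 ratio lay above 0 for 69 of the 72 pairs of member and class and below 0 for none. The share of all genes with such an interval was not counted, so this count cannot show how the members compare with other genes. The median log2 ratio of the measured members ran from 1.56 in cDC1-like to 4.46 in tumour or stroma-like cells, whereas the median over all genes measured in a class lay between -0.04 and 0.09.

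**Figure D1:**
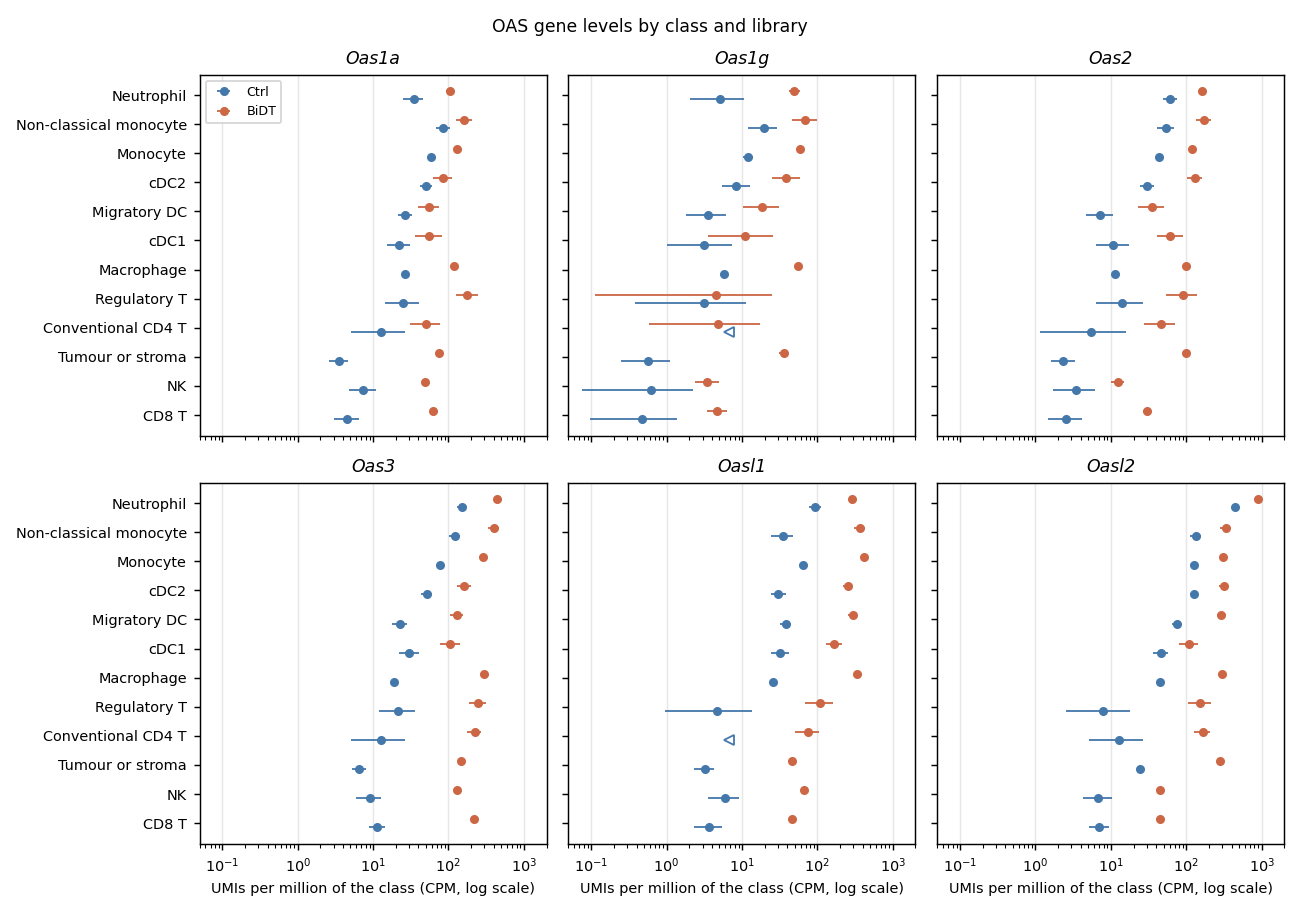
Level of each OAS gene (CPM, log axis) in 12 classes, ordered by the summed level in Ctrl, for Ctrl (blue) and BiDT (orange). Bars are exact Poisson 95% intervals, an open triangle marks the upper limit of a count of 0, and lower ends under 0.05 are drawn at 0.05. The points of Oas3 run from 6.47 to 152 CPM in Ctrl and from 106 to 440.4 in BiDT.

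Oas1a, a small synthetase, was highest in Ctrl in non-classical monocyte-like cells, at 85 CPM (95% interval 68.9 to 104), and lowest in tumour or stroma-like cells, at 3.56 CPM (95% interval 2.64 to 4.69). From Ctrl to BiDT it went from 85 to 162 CPM in the former, from 58.3 to 129.5 in monocyte-like, 26.5 to 119 in macrophage-like and 34.4 to 106 in neutrophil-like cells. In DC-like cells it went from 22.2 to 55.1 (cDC1), 50.7 to 84.7 (cDC2) and 26.8 to 54.8 CPM (migratory). Oas1a was thus higher in BiDT in every myeloid class, but by less than 2-fold in 2 of them, with log2 ratios of 0.74 (95% interval 0.24 to 1.22) in cDC2-like and 0.93 (95% interval 0.47 to 1.39) in non-classical monocyte-like cells. In lymphocytes and tumour or stroma-like cells the levels were 4.59 to 63.1 CPM (CD8 T), 12.8 to 50.7 (conventional CD4 T), 24.9 to 179 (regulatory T), 7.43 to 49.1 (NK) and 3.56 to 76.1 (tumour or stroma). The largest ratio was in tumour or stroma-like cells, at 4.42 (95% interval 4.0 to 4.87), followed by CD8 T-like cells, whose interval overlapped it, at 3.78 (95% interval 3.24 to 4.37). In BiDT, regulatory T-like cells came first in level, at 179 CPM (95% interval 128 to 243) from 40 UMIs, and overlapped the non-classical monocyte-like cells. The ratio went below 2-fold in monocyte-like cells after thinning each cell to 1000 UMIs (0.93) and in cDC1-like cells without cells above 1% Malat1 (0.92), while a stricter gate, which asks for 1 more marker of the class, gave 2.41 in the latter. In migratory DC-like cells 5 alternatives placed it below 2-fold, between 0.53 and 0.99.

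Oas1g, the near copy of Oas1a and also an active synthetase, was measured in 5 classes. It went from 19.5 to 68.2 CPM in non-classical monocyte-like, 12 to 59.7 in monocyte-like, 5.77 to 56.1 in macrophage-like, 5.13 to 49.7 in neutrophil-like and 0.569 to 35.9 in tumour or stroma-like cells. In tumour or stroma-like cells this was 8 UMIs against 230, and a log2 ratio of 5.98 (95% interval 4.97 to 7.21), the largest of any measured member and class, with an interval that overlapped that of Oas2 there. With cells thinned it was 4.96. In neutrophil-like cells the ratio of 3.28 became 4.06 with the stricter gate and 2.33 with Leiden clusters of the cells in place of gates. In the other 7 classes it had 46 UMIs or fewer: 0.474 to 4.70 CPM in CD8 T-like, 0.620 to 3.49 in NK-like, 3.11 to 4.47 in regulatory T-like, 3.17 to 11 in cDC1-like, 8.46 to 39.0 in cDC2-like and 3.49 to 18.7 in migratory DC-like cells, and 0 UMIs against 2 in conventional CD4 T-like cells. For cDC1-like, regulatory T-like and conventional CD4 T-like cells the interval included 0, so that no difference was detectable at this depth.

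The level of Oas1g in lymphocytes was close to that of free RNA, that is, RNA of lysed cells that enters other droplets. In BiDT it was 8.38% of the macrophage-like level in CD8 T-like and 6.22% in NK-like cells. The myeloid genes Lyz2, Cd14, Csf1r and Msr1, which lymphocytes should lack, stood there at 3.63% to 6.16% and at 3.64% to 6.22% of their macrophage-like level, so that Oas1g lay above that range in CD8 T-like cells and at its upper end in NK-like cells. Oas3 lay far above that range, at 75.5% and 44.5%. Tumour or stroma-like cells in BiDT had 64.0% of the macrophage-like level of Oas1g beside 3.06% to 6.79% for the 4 myeloid genes.

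Oas2, a synthetase of medium size, was highest in Ctrl in neutrophil-like cells, at 60.8 CPM (95% interval 48.4 to 75.4), overlapping non-classical monocyte-like cells at 54.0 CPM (95% interval 41.3 to 69.4). It went from 60.8 to 164 CPM in neutrophil-like, 54.0 to 169 in non-classical monocyte-like, 43.5 to 119 in monocyte-like and 11.4 to 98.0 in macrophage-like cells. In DC-like cells it went from 10.8 to 61.7 (cDC1), 30.1 to 130.4 (cDC2) and 7.28 to 34.8 CPM (migratory). Its 4 lowest Ctrl levels were those of conventional CD4 T-like, NK-like, CD8 T-like and tumour or stroma-like cells, all under 6 CPM. From there it went to 45.9 CPM in conventional CD4 T-like (from 5.50), 12.3 in NK-like (from 3.41), 30.2 in CD8 T-like (from 2.53) and 100.3 in tumour or stroma-like cells (from 2.35), and in regulatory T-like cells from 14 to 89.3. Tumour or stroma-like cells, lowest in Ctrl, had passed the macrophage-like level in BiDT (98.0 CPM, intervals overlapping), with a log2 ratio of 5.42 (95% interval 4.91 to 5.97). NK-like cells were lowest in BiDT, at 12.6% of the macrophage-like level, with a log2 ratio of 1.85 (95% interval 0.96 to 2.90). Without removal of doublets the ratio in CD8 T-like cells was 2.80 instead of 3.58, and with cells thinned it was 4.63 in tumour or stroma-like cells.

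Oas3, the largest synthetase, was the only member measured in all 12 classes and was at least 2-fold higher in each. It went from 152 to 440.4 CPM in neutrophil-like, 121 to 398 in non-classical monocyte-like, 77.1 to 287 in monocyte-like and 19.3 to 292 in macrophage-like cells. In DC-like cells it went from 30.4 to 106 (cDC1), 51.8 to 161 (cDC2) and 22.7 to 129.7 CPM (migratory). Macrophage-like cells took rank 8 of the 12 classes in Ctrl and rank 3 in BiDT, where their interval overlapped that of monocyte-like cells. In lymphocytes it went from 11.4 to 221 CPM (CD8 T), 12.8 to 222 (conventional CD4 T), 21.7 to 246 (regulatory T) and 8.98 to 130.2 (NK), and in tumour or stroma-like cells from 6.47 to 147. CD8 T-like cells had a log2 ratio of 4.28 (95% interval 3.94 to 4.64), from 72 to 2021 UMIs, while neutrophil-like cells had the smallest, 1.54 (95% interval 1.32 to 1.76). In BiDT the 3 T-like classes overlapped one another and stood above all 3 DC-like classes in point value. With cells thinned the ratio was 3.51 in tumour or stroma-like, 3.28 in conventional CD4 T-like and 2.91 in regulatory T-like cells. With clusters it was 3.43 in conventional CD4 T-like cells, and with the stricter gate 2.31 in cDC2-like cells.

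Oasl1, the member without synthetase activity, had its highest Ctrl level in neutrophil-like cells, at 93.0 CPM (95% interval 77.5 to 111). It went from 93.0 to 289 CPM there, from 64.8 to 414 in monocyte-like, 34.5 to 365 in non-classical monocyte-like and 25.8 to 332 in macrophage-like cells. In DC-like cells it went from 32.3 to 168 (cDC1), 30.5 to 256 (cDC2) and 38.1 to 293 CPM (migratory). Monocyte-like cells took the first place in BiDT, at 414 CPM (95% interval 403 to 425), which overlapped non-classical monocyte-like cells. Outside the myeloid cells it went from 3.64 to 46.3 CPM (CD8 T), 4.66 to 107 (regulatory T), 5.89 to 66.8 (NK) and 3.20 to 46.0 (tumour or stroma). Conventional CD4 T-like cells had 0 UMIs in Ctrl and 31 in BiDT (74.8 CPM), at least 13.6-fold higher against a floor of 3 UMIs for the Ctrl class sum. Among measured classes the log2 ratio was largest in tumour or stroma-like cells, at 3.84 (95% interval 3.39 to 4.33), where the BiDT level nevertheless was among the lowest and the interval overlapped those of macrophage-like, CD8 T-like and NK-like cells. It was smallest in neutrophil-like cells, at 1.64 (95% interval 1.37 to 1.92). Thinning lowered the ratio to 2.90 in CD8 T-like, 2.01 in NK-like and 2.97 in tumour or stroma-like cells, which then stood below macrophage-like (3.56), migratory DC-like (3.44) and non-classical monocyte-like cells (3.30). The stricter gate lowered it to 1.2 in cDC2-like cells, whereas it raised the cDC1-like ratio to 3.07.

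Oasl2, the active synthetase of the OAS-like pair, stood out in neutrophil-like cells, at 444 CPM (95% interval 409 to 481) in Ctrl and 901 CPM (95% interval 866 to 937) in BiDT, above every other class in both libraries with no overlap of the intervals. It went from 133 to 336 CPM in non-classical monocyte-like, 125 to 306 in monocyte-like and 45.2 to 302 in macrophage-like cells. In DC-like cells it went from 45.6 to 108 (cDC1), 126 to 313 (cDC2) and 74.2 to 291 CPM (migratory). The neutrophil-like log2 ratio, 1.02 (95% interval 0.89 to 1.15), lay next to the 2-fold line, and 4 alternatives placed it below, between 0.84 and 0.99. In the other classes it went from 6.96 to 44.3 CPM (CD8 T), 12.8 to 164 (conventional CD4 T), 7.77 to 152 (regulatory T), 6.81 to 44.2 (NK) and 24.5 to 284 (tumour or stroma). CD8 T-like and NK-like cells were lowest in BiDT, at 4.92% and 4.91% of the neutrophil-like level, and stood under 10% of it in both libraries. Both stood at 14.7% of the macrophage-like level in BiDT, beside 3.63% to 6.22% for the myeloid genes. Because neutrophil-like cells had more Oasl2 than macrophage-like cells, this comparison cannot tell whether the level lay above free RNA. Tumour or stroma-like cells reached 94.2% of the macrophage-like level. Thinning gave a ratio of 3.91 in NK-like cells and, below 2-fold, 0.97 in cDC2-like cells. In conventional CD4 T-like cells the ratio was 3.02 without removal of doublets and 2.68 with clusters, and in cDC1-like cells 1.84 with the stricter gate.

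The classes differed more in Oas3 in Ctrl than in BiDT. Neutrophil-like cells had the highest and tumour or stroma-like cells the lowest Oas3 in Ctrl, 23.4-fold apart, whereas the highest and lowest class in BiDT were 4.16-fold apart. The standard deviation of log2 CPM over the 12 classes was 1.48 in Ctrl and 0.66 in BiDT for Oas3, which had 50 UMIs in each class. The other members had fewer than 50 UMIs in some classes, and this minimum depends on the number of cells as well as on the level. For Oas2 it leaves out regulatory T-like cells, at 89.3 CPM in BiDT, but keeps NK-like cells, at 12.3 CPM. The spread of these other members is therefore given over all classes with a UMI of the gene in both libraries. This was done with no minimum, a choice made after seeing the data. The standard deviation was 1.44 in Ctrl and 0.67 in BiDT for Oas1a (12 classes), 1.68 and 1.14 for Oas2 (12), 1.75 and 1.21 for Oasl1 (11), 1.98 and 1.26 for Oasl2 (12), and close in both libraries for Oas1g (11), at 1.82 and 1.65. Of the 2555 genes measured in all 12 classes, Oas3 among them, 38.8% had a smaller standard deviation in BiDT, and the median over these genes was 0.53 in Ctrl and 0.57 in BiDT. The other members are not in this set, and their spreads, taken with no minimum, have no like background. The counting error of low Ctrl counts adds to the spread in Ctrl, and its part was not tested.

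**Figure D2:**
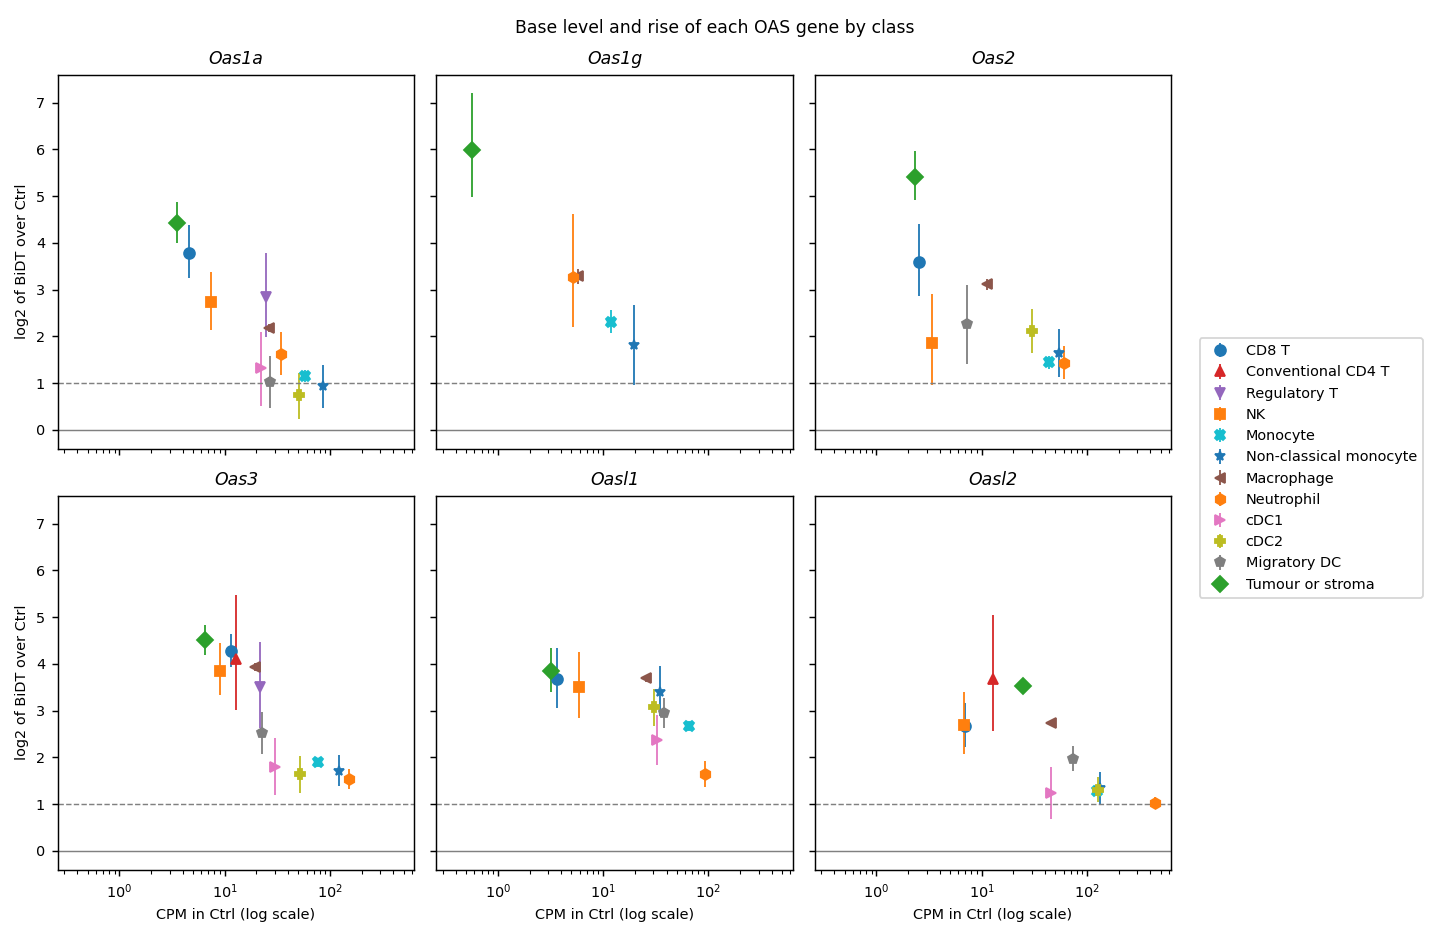
Log2 ratio of BiDT over Ctrl (vertical axis) against the Ctrl level in CPM (horizontal log axis) for each member in the classes where it had at least 50 UMIs. Bars are 95% counting intervals, the dashed line marks 2-fold and the solid line no difference. Tumour or stroma-like cells lie at the upper left for Oas1g, Oas2 and Oas3 and neutrophil-like cells at the lower right for Oas3, Oasl1 and Oasl2.

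Pearson's r between the log2 Ctrl level and the log2 ratio over the measured classes was -0.90 for Oas1a, -0.90 for Oas3, -0.74 for Oas2, -0.77 for Oasl1 and -0.78 for Oasl2. The Ctrl value enters both axes, so that a negative value is built in, and classes share their library. Between the Ctrl and the BiDT level r was 0.58 for Oas1a, 0.74 for Oas2, 0.62 for Oas3, 0.94 for Oasl1 and 0.89 for Oasl2. Among these 5 members r was thus largest for Oasl1 and Oasl2, but it does not compare ranks and covers unlike sets of classes. For Oasl1 neutrophil-like cells went from rank 1 in Ctrl to rank 5 in BiDT, and macrophage-like cells from rank 7 to rank 3. Oas1g, with 5 measured classes, has no value here. By absolute difference the classes took another order than by ratio: the summed level was higher by 1162 CPM in neutrophil-like, 1066 in macrophage-like and 379.8 CPM in CD8 T-like cells.

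Macrophage-like and cDC1-like cells were close in their summed Ctrl level (134 and 144 CPM) but not in BiDT, at 1199 and 509 CPM. The log2 ratios were 3.92 (95% interval 3.84 to 4.01) and 1.80 (95% interval 1.19 to 2.41) for Oas3. They were 3.69 (95% interval 3.61 to 3.76) and 2.38 (95% interval 1.84 to 2.92) for Oasl1, and 2.74 (95% interval 2.68 to 2.80) and 1.24 (95% interval 0.69 to 1.79) for Oasl2, and the intervals were apart for these 3 members. They were 2.17 (95% interval 2.08 to 2.26) and 1.31 (95% interval 0.51 to 2.10) for Oas1a, and 3.11 (95% interval 2.99 to 3.23) and 2.52 (95% interval 1.60 to 3.48) for Oas2, with overlapping intervals, and those of Oas1g overlapped as well. Oas2 and Oas1g had fewer than 50 UMIs in cDC1-like cells. Oas3 itself was lower in macrophage-like than in cDC1-like cells in Ctrl, at 19.3 CPM (95% interval 18.2 to 20.3) and 30.4 CPM (95% interval 22.4 to 40.3). Different clusters held most macrophage-like cells in the libraries. Clusters 10 and 11 held 55.6% of those in BiDT and 1.33% of those in Ctrl, while clusters 0 and 1 held 35.3% of those in Ctrl and under 1% each of those in BiDT. The part of this difference in makeup in the result was not tested. Macrophage-like cells in BiDT were shallower than in Ctrl (median 3461 against 6588 UMIs) and had a larger share of Malat1 (0.72% against 0.28%), and the part of these differences in the result was not tested. With cells thinned to 1000 UMIs the ratios in macrophage-like cells moved by less than 1.5 times.

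Within pairs of members the balance of UMIs differed between the libraries. Oasl1 made up 34.1% of the UMIs of Oasl1 and Oasl2 in monocyte-like cells in Ctrl (exact binomial 95% interval 32.3 to 35.9) and 57.5% in BiDT (56.5 to 58.5). In macrophage-like cells its share was 36.3% and 52.4%, in non-classical monocyte-like 20.6% and 52.0%, in migratory DC-like 33.9% and 50.1%, and in cDC2-like cells 19.5% and 44.9%. The share was higher in BiDT in 10 of 10 measured classes, with intervals apart in 8. It stayed low in neutrophil-like cells, at 17.3% and 24.3%, and in tumour or stroma-like cells, at 11.6% and 13.9% with overlapping intervals, and in NK-like cells the intervals overlapped as well (46.3% and 60.2%). After thinning, the direction turned in NK-like and in tumour or stroma-like cells, and with the stricter gate it turned in cDC2-like cells.

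Oas1g made up 13% to 18.6% of the UMIs of Oas1g and Oas1a in Ctrl and 29.6% to 32.0% in BiDT over the 5 classes where it was measured, with intervals apart in 4. In macrophage-like cells the share was 17.9% (16.3 to 19.5) and 32.0% (30.5 to 33.5). Across neutrophil-like, monocyte-like, macrophage-like and tumour or stroma-like cells the BiDT share thus fell within 31.6% to 32.0%. Since the genes share transcript windows, the level of this share depends on how shared reads were counted.

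Oas3 made up 42.1% of the UMIs of Oas3 and Oas1a in macrophage-like cells in Ctrl and 71.0% in BiDT. The share was higher in BiDT in 10 of 11 classes, with intervals apart in 5, and in neutrophil-like cells it was 81.5% and 80.6%. The direction turned after thinning in CD8 T-like and in tumour or stroma-like cells, and with the stricter gate in cDC1-like cells. In neutrophil-like cells it turned with the stricter gate and with clusters, so that Oas3 then had the larger ratio. Against Oas2, Oas3 gained in NK-like (72.5% to 91.4%), monocyte-like (63.9% to 70.8%) and macrophage-like cells (62.9% to 74.9%), with intervals apart. In tumour or stroma-like cells it lost, from 73.4% to 59.4%, with intervals apart as well.

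**Figure D3:**
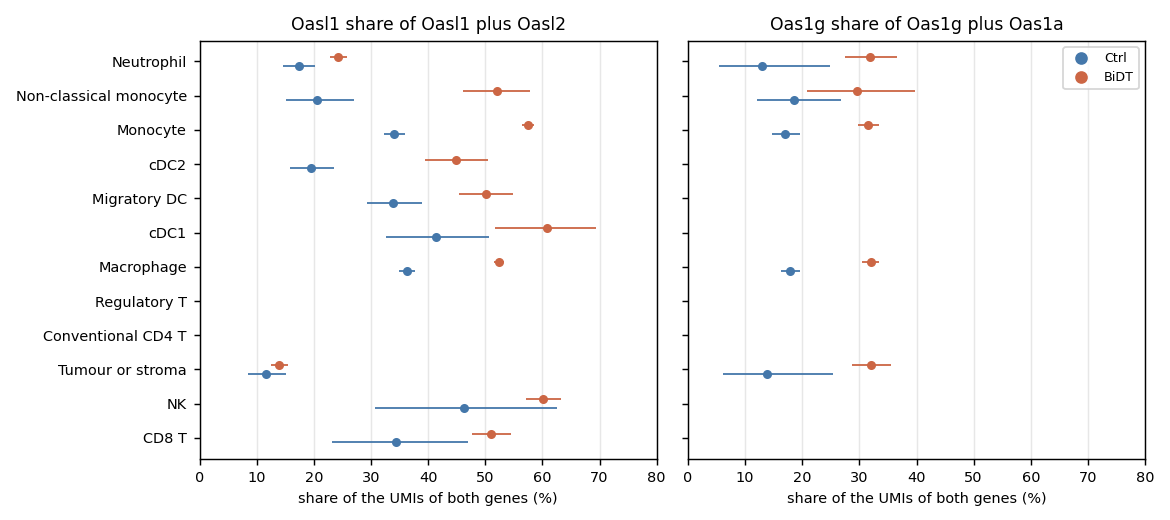
Share of Oasl1 among the UMIs of Oasl1 and Oasl2 (left) and of Oas1g among those of Oas1g and Oas1a (right), in percent, by class, for Ctrl (blue) and BiDT (orange), with exact binomial 95% intervals. Classes where the rarer of the pair had under 50 UMIs are left blank. Every measured class has its BiDT point to the right of its Ctrl point, and in tumour or stroma-like cells the points for Oasl1 lie close, at 11.6% and 13.9%.

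Detection per cell was compared after thinning each cell to 1000 UMIs, since the libraries differ in depth; no filtered cell of these classes had fewer. A UMI of at least 1 member was found in 3.28% of CD8 T-like cells in Ctrl (exact binomial 95% interval 2.46 to 4.28) and 30.1% in BiDT (28.3 to 32.0). In NK-like cells it was 3.59% and 24.4%, in macrophage-like cells 11.6% and 60.9%, in monocyte-like cells 27.2% and 58.4%, and in neutrophil-like cells 42.3% and 70.2%. The share was at least 2-fold higher in BiDT in 11 of 12 classes, and neutrophil-like cells, with 1.66-fold, were the exception. Without thinning the shares were 8.70% and 62.2% in CD8 T-like, 42.9% and 85.7% in macrophage-like and 58.4% and 81.3% in neutrophil-like cells, and 5 classes were at least 2-fold higher. Free RNA adds to such shares, and Oas1g alone, close to free RNA in lymphocytes, was found in 0.381% of thinned CD8 T-like and 0.199% of NK-like cells in BiDT.

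OAS UMIs were spread over many cells in BiDT. Of the thinned macrophage-like cells in BiDT, 32.7% had UMIs of 1, 19.8% of 2 and 8.38% of 3 or more different members. In Ctrl these shares were 10.0%, 1.33% and 0.257%. The variance of the UMI count of all members summed, divided by its mean, was 1.62 in BiDT and in Ctrl. A value of 1 stands for cells that differ by sampling alone. The quotient was 1.23 and 1.38 in CD8 T-like cells and 2.14 and 2.19 in neutrophil-like cells. It was higher in BiDT than in Ctrl in 7 of the other 9 classes, among them migratory DC-like (1.98 and 1.42), monocyte-like (1.96 and 1.73), cDC1-like (2.13 and 1.75) and NK-like cells (1.40 and 1.21). The mean count was higher in BiDT too, at 1.27 against 0.42 in monocyte-like and 1.25 against 0.15 in macrophage-like cells. Since this quotient depends on the mean, it cannot show whether cells differed more or less from one another in BiDT.

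Havcr2 encodes TIM3, the target named in the series title, and OAS levels were compared between cells with and without a Havcr2 UMI. Among thinned CD8 T-like cells from BiDT the summed OAS level was 400.6 CPM (95% interval 353 to 453) in the 644 cells with Havcr2 and 396 (367 to 427) in the 1721 without. In Ctrl it was 44.7 (23.8 to 76.4) and 34.7 CPM (25.3 to 46.5). No difference between the subsets was detectable at this depth in either library. In macrophage-like cells of BiDT it was 1416 CPM (1313 to 1525) with Havcr2 and 1226 (1194 to 1259) without, with intervals apart, and in Ctrl 154 and 151 CPM. In monocyte-like cells of BiDT the order was opposite, at 1176 (1088 to 1269) and 1282 CPM (1243 to 1321), with overlapping intervals. A cell without a Havcr2 UMI at this depth may still express the gene.

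Other genes tied to 2′-5′ chains and their turnover did not share the size of the OAS difference. Abce1, which encodes a factor that recycles ribosomes, had log2 ratios of -0.86 (macrophage-like) to 0.24 (non-classical monocyte-like) over 10 classes, with the interval below 0 in 5. Pde12, an enzyme that degrades 2′-5′ chains, was measured in 5 classes, with the interval below 0 in 3 and the lowest ratio, -0.98, in tumour or stroma-like cells. Akap7, whose product carries a domain of the same kind of activity, ran from -0.58 to 0.51 over 6 classes. None of these 3 genes reached 2-fold in either direction in a class where it was measured.

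Among the remaining synthetase genes Oas1c alone had 50 UMIs. It went from 6.64 to 19.4 CPM in CD8 T-like, 4.96 to 8.61 in NK-like, 2.98 to 8.30 in monocyte-like, 2.22 to 11.4 in macrophage-like and 1.14 to 11.5 in tumour or stroma-like cells. Its log2 ratio was at least 1 in 4 of 5 classes, largest in tumour or stroma-like cells at 3.34 (95% interval 2.55 to 4.22), and 0.80 (95% interval 0.01 to 1.67) in NK-like cells. Of these 5 classes CD8 T-like cells had its highest Ctrl level, whereas no member was highest there in Ctrl. Regulatory T-like and conventional CD4 T-like cells, where Oas1c was not measured, stood higher in Ctrl, at 12.4 and 7.33 CPM from 8 and 4 UMIs. Oas1d, Oas1e, Oas1f and Oas1h had 5 UMIs or fewer over all filtered cells.

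The whole pathway list adds sensors and effectors of nucleic acids and parts of interferon signalling to these genes, and 26 of its 29 symbols were in the files. At least 2-fold higher were 11 of 21 measured genes in CD8 T-like, 9 of 21 in NK-like, 9 of 13 in conventional CD4 T-like and 8 of 14 in regulatory T-like cells. The counts were 13 of 22 in macrophage-like, 11 of 22 in monocyte-like, 7 of 17 in non-classical monocyte-like and 7 of 18 in neutrophil-like cells. They were 3 of 17 in cDC1-like, 11 of 17 in cDC2-like, 12 of 22 in tumour or stroma-like and 10 of 16 in migratory DC-like cells. None was at least 2-fold lower. Over all genes, 2.92% (cDC2-like) to 8.94% (macrophage-like) were at least 2-fold higher and 0.852% (tumour or stroma-like) to 5.26% (macrophage-like) at least 2-fold lower. Median log2 ratios of the list were below those of the members in each class, for example 1.55 against 3.67 in CD8 T-like and 1.48 against 3.20 in macrophage-like cells. The list also holds genes that reached 2-fold in no measured class, such as Jak1, Ifnar1, Ifnar2 and Abce1, so its median depends on the choice of genes.

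Usp18, which encodes a protease and brake on interferon receptor signalling, and Irf7, a transcription factor of the interferon response, had the highest ratios of the list in 11 of 12 classes. Usp18 had the highest in CD8 T-like cells, 5.25 (95% interval 4.80 to 5.74), and Irf7 in tumour or stroma-like cells, 4.89 (95% interval 4.66 to 5.13). In cDC1-like cells the highest was Ifih1, which encodes the double-stranded RNA sensor MDA5, at 1.63 (95% interval 1.13 to 2.13). The lowest ratio of a class was that of Abce1, Jak1, Pde12, Irf1 or Ifnar1, and none of these reached 2-fold lower. In CD8 T-like cells Jak1 was lowest at -0.41, and in regulatory T-like cells Irf1, a transcription factor, at -0.69 (95% interval -1.13 to -0.26). The receptor genes Ifnar1 and Ifnar2 did not reach 2-fold in a measured class.

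**Figure D4:**
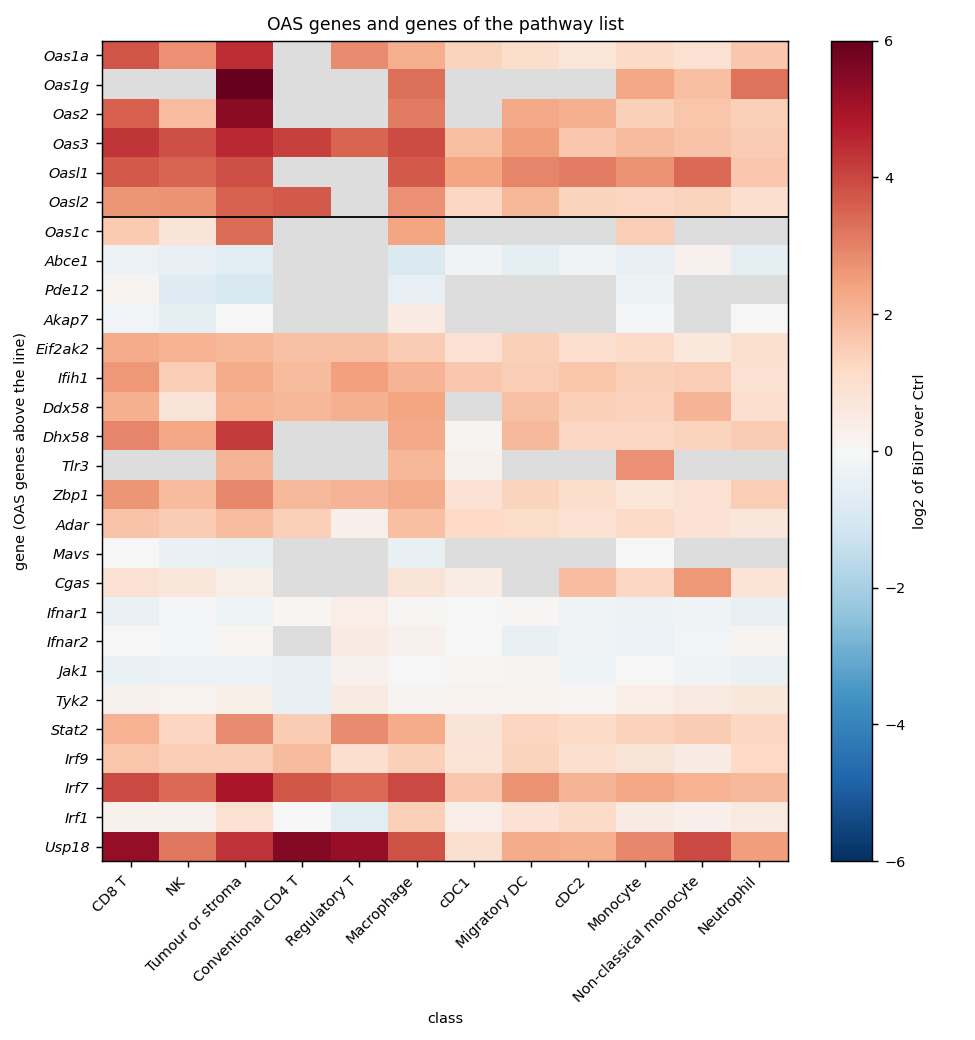
Log2 ratio of BiDT over Ctrl (colour) for the OAS genes (above the line) and the genes of the pathway list measured in at least 1 class, by class in order of the summed OAS level in Ctrl. Grey cells had fewer than 50 UMIs over both libraries. Usp18, Oas1g, Oasl1, Irf7 and Oas3 have the largest median ratios over their measured classes, from 3.51 (Usp18) to 3.01 (Oas3). The medians of Oas1a (1.62) and Oasl2 (1.97) lie below that of Ddx58 (1.98). Abce1, Jak1, Ifnar1 and Ifnar2 stay pale.

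The genes most like each member were ranked by Pearson's r of log2(CPM + 1) over 24 profiles, the 12 classes in each library, among 13871 genes. The profiles share 2 libraries, and any gene that was higher in BiDT gains in r from that alone. For Oas1a they were Irf7 (r = 0.94), Dhx58 (0.94) and Zbp1 (0.93), and for Oas1g Trim25 (0.92), Ifi211 (0.91) and Phf11d (0.90). Oas2 was most like Parp14 (0.96), Rtp4 (0.95) and Irf7 (0.94), and Oas3 most like Irf7 (0.97), Cmpk2 (0.96) and Trim30d (0.95). The nearest to Oasl1 were Trafd1 (0.95), Trim25 (0.92) and Rsad2 (0.91), and to Oasl2 Trim25 (0.93), Irgm1 (0.92) and Cxcl10 (0.92). Dhx58 and Zbp1 encode sensors of nucleic acids, Rsad2 the antiviral enzyme viperin, Cmpk2 a nucleotide kinase and Cxcl10 a chemokine. Among the members themselves r ran from 0.80 (Oas1a with Oasl2, and Oas1g with Oas3) to 0.93 (Oas1a with Oas2).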

How the data were processed

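The authors deposited UMI counts for each gene in each cell barcode, without normalization. The submitters' processing notes name Cell Ranger 7.1.0 and GRCm39. Per the labels' protocols a 10x Genomics 3' kit was used, but the deposited barcodes hold 3 joined segments, a form foreign to Cell Ranger output, so the counting step is uncertain. Both libraries are labelled batch 1.

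Kept cells had at least 300 genes, at least 500 UMIs and no more than 10% of UMIs from mitochondrial genes. Scores for doublets came from the method of Scrublet with exact nearest neighbours. Its automatic threshold marked 1 cell in Ctrl and 0 in BiDT and had not worked, and cells scoring at least 0.15 were removed, 2205 in Ctrl (6.76%) and 2967 in BiDT (8.62%). A cell entered a class by the number of class markers with a UMI and the absence of markers of other classes, and cells that met several gates were left out. Counts were added up over the cells of a class in a library and given as CPM with exact Poisson 95% intervals. Log2 ratios have exact conditional binomial intervals and shares of cells or UMIs exact (Clopper-Pearson) intervals. With 1 library per group no test was run. The calculation was tested on simulated data.

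The members, the pathway list, the markers and the alternatives were chosen with earlier results of these data known, and the thresholds of the gates and the doublet score after the counts had been seen. The named genes are the 6 members in every class, the 3 genes most like each member among genes with at least 200 UMIs, and of the pathway list the other synthetase genes with at least 50 UMIs and the highest and lowest ratio of a class, with Abce1, Pde12, Akap7, Ifnar1 and Ifnar2 added after their values were seen. 3 symbols of the list (Oas1b, Rigi and Sting1) had no row under that name, and some genes are not reported here. Motif searches used RefSeq promoter windows of GRCm38.p6. The software was scanpy 1.11.5, scipy 1.17.1, numpy 2.4.6, pandas 2.3.3 and scikit-learn 1.9.0 in Python 3.11.15, and edgeR 4.0.16 for TMM scaling, an alternative only.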

Additional observations from a re-analysis of the deposited data

How the results depend on the processing

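No paired analysis was possible because each group is a single pooled library. Over 10 alternatives, 663 log2 ratios of a member, in a class or over all filtered cells, were recomputed, and none changed sign. An alternative moved the ratio of a measured member by over 1.5 times in 20 cases and took it below 2-fold in 12 cases, which concern 5 pairs of member and class. TMM scaling shifted ratios by -0.22 to 0.06. For ratios, 2 alternatives were chosen after seeing the data, leaving out the shared barcodes and a monocyte gate without Ly6c2 and Plac8, which raised the monocyte-like ratios by 0.10 to 0.45. Some monocyte-like cells fell in clusters where most gated cells were NK-like, and more so in BiDT. Cluster 19 held 5.82% of them in BiDT and 0.69% in Ctrl, and cluster 20 held 3.83% and 0.3%. Cluster 27 held 3.83% and 1.47%, and cluster 28 held 0.682% and 0.06%. The part of this mixing in the monocyte-like levels and ratios was not tested. As in macrophage-like cells, the makeup by cluster differed between the libraries in further classes. Cluster 5 held 19.7% of monocyte-like cells in BiDT and 0.12% in Ctrl, and 15.5% and 0% of non-classical monocyte-like cells. Cluster 27 held 18.6% of NK-like cells in BiDT and 51.8% in Ctrl. The part of these differences in the ratios and pair shares was not tested. For Oas3 the standard deviation over classes was 1.25 to 1.51 in Ctrl and 0.56 to 0.80 in BiDT over 8 alternatives. Oasl1 had a larger ratio than Oasl2 in 7 to 10 classes, and Oas1g than Oas1a in 4 to 5, where clusters gave no value for some classes. Counts of members at least 2-fold higher stayed within 1.5 times in CD8 T-like, NK-like, monocyte-like, macrophage-like, neutrophil-like and tumour or stroma-like cells, and over all filtered cells. They moved in the classes with the fewest cells, in part because fewer members reached 50 UMIs. In conventional CD4 T-like cells the count was 2, but 0 with thinning, 4 with clusters and 5 with no minimum of UMIs. In regulatory T-like cells it was 2, but 0 with thinning, 1 with Malat1 at most 1%, 5 with clusters and 5 with no minimum. Thinning gave 2 of 2 measured members in non-classical monocyte-like cells, 0 in cDC1-like, 1 in cDC2-like and 2 in migratory DC-like cells. The stricter gate gave 1 in cDC1-like and 3 in migratory DC-like cells, where Malat1 at most 1% also gave 3. Without thinning, 5 instead of 11 classes had at least 2-fold more cells with an OAS UMI. Depth limits Oas1g in lymphocytes and cDC1-like cells, where class sums held 46 UMIs or fewer.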
